A study of Mus musculus with 12 samples.

Results

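Tendon and myotendinous genes were followed in tibialis anterior (TA) muscle, a muscle of the lower hindlimb, from before birth to young adulthood. They are a named list of 7 genes, *Scx*, *Mkx*, *Tnmd*, *Tnc*, *Thbs4*, *Comp* and *Cilp*, chosen for what they encode and matched from mouse symbol to Ensembl gene identifier, of 55450 genes in the count table. All 7 were found and all 7 passed the filter on low counts. Muscle pieces were taken from wild-type (WT) mice of the 129Pas background at E18.5, shortly before birth, and at 2 weeks (wks) and 7 wks of age, giving 12 libraries from 4 mice per age. The labels name no treatment, and the ages were the only groups. PolyA RNA was sequenced from stranded libraries and the values are raw read counts per gene.

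Tendon cells differentiate under the transcription factors scleraxis, the product of *Scx*, and mohawk, the product of *Mkx*, and then lay down a collagen-rich matrix. Tenomodulin (*Tnmd*) is a membrane glycoprotein of mature tendon cells. Tenascin C (*Tnc*), thrombospondin 4 (*Thbs4*), cartilage oligomeric matrix protein (*Comp*, also known as thrombospondin 5) and cartilage intermediate layer protein (*Cilp*) are secreted into the matrix of tendon, of the myotendinous junction where fibres anchor to tendon, and in part of cartilage. A piece of a whole muscle holds fibres, connective tissue and varying amounts of tendon, and in such bulk RNA fewer cells of a type and less RNA per cell cannot be told apart.

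The genes lie on different chromosomes. On GRCm38.p6 *Scx* lies on the plus strand at chr15:76457411-76459468, *Tnmd* on the plus strand at chrX:133851008-133865577, *Comp* on the plus strand at chr8:70373548-70382066 and *Cilp* on the plus strand at chr9:65265180-65280614. *Thbs4* lies on the minus strand at chr13:92751586-92794818 and *Tnc* on the minus strand at chr4:63959785-64047015. *Scx* sits inside *Bop1*, a ribosome biogenesis gene on the opposite strand with which it shares 0 exonic bases.

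Promoters from RefSeq (GRCm38.p6) are shown for 4 of the 7 genes. Of these, *Tnmd* and *Tnc* had the most similar profiles of the list while *Thbs4* and *Cilp* had others. No entry was found for *Scx* and *Comp*. *Mkx* was left out of the promoter search, and its position is not reported here. Each window runs from 250 bases before to 50 after the annotated start, 5′ to 3′ on the gene's strand, and capitals mark the E-box CANNTG, the core bound by scleraxis and other basic helix-loop-helix factors. For *Tnc* the first of several listed starts is shown. The windows are chrX:133850758-133851057 (plus strand) for *Tnmd*, chr4:64046966-64047265 (minus strand) for *Tnc*, chr13:92794769-92795068 (minus strand) for *Thbs4* and chr9:65264930-65265229 (plus strand) for *Cilp*.
Tnmd: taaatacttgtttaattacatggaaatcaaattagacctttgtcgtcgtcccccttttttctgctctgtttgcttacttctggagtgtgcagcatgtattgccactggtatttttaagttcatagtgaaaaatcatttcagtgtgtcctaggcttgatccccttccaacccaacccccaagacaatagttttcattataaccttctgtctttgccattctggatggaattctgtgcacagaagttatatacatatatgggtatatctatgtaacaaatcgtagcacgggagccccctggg
Tnc: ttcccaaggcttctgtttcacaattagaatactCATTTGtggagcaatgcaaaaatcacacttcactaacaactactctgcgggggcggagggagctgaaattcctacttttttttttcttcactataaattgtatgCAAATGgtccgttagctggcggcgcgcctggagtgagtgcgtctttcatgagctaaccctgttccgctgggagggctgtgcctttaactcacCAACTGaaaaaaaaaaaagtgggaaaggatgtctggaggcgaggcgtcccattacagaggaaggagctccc
Thbs4: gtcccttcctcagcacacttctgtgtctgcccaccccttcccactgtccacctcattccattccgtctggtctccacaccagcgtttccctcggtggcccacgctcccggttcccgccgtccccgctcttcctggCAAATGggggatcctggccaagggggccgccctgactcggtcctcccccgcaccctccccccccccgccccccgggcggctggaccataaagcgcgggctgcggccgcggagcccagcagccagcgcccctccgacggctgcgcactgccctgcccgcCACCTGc
Cilp: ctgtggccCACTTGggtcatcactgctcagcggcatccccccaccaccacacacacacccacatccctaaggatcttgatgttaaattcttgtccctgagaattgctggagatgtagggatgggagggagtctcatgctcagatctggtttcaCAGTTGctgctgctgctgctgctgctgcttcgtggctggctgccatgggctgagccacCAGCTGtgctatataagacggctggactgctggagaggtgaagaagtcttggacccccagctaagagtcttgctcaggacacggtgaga

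Both strands were searched, and CANNTG reads as CANNTG on the other strand. The *Tnc* window held 3 matches, beginning at -217, -113 and -21 from the start, and the *Cilp* window held 3, at -242, -97 and -39. The *Thbs4* window held 2, at -115 and 44, where the start is counted as 1. The *Tnmd* window held 0, which says only that these letters are not in this window. Of 32851 promoter windows of the same length, 72.3% held at least 1 match with a median of 1, so a match in such a window is common.

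Library totals ran from 63018968 to 123449246 counts and overlapped between ages, so that even the least counted gene of the list, *Mkx*, had at least 22 counts in every library. Levels are given as CPM, that is read counts divided by the library size after TMM normalization. The scaling matters here, because scaling to the total count instead moved the median change (log2) over the 19276 genes that were tested from -0.09 to -1.02 between E18.5 and 2 wks, from -0.03 to -0.38 between 2 and 7 wks and from -0.09 to -1.37 between E18.5 and 7 wks. With it 13.2% of all genes were called upwards and 61.9% downwards from E18.5 to 2 wks, 4.92% and 28% from 2 to 7 wks, and 11.9% and 69% from E18.5 to 7 wks. The muscle label held: the 6 genes of a muscle fibre list summed to at least 12132 CPM in every library, and all 6 were higher at 2 wks than at E18.5. All 12 libraries carried Y-linked transcripts with *Xist* at no more than 0.201 CPM. E18.5 replicate 2 stood apart in markers of cartilage and epidermis, E18.5 replicates 3 and 4 in markers of adipocytes and 2 wks replicate 1 in markers of Schwann cells. E18.5 replicate 2 was also the highest library of its age for the muscle fibre, fibroblast, bone and Schwann cell lists. These values are given below beside the genes they move with. Fold changes are log2 values with their standard error (SE), and adjusted p-values are Benjamini-Hochberg values of edgeR's quasi-likelihood test over these 19276 genes.

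The transcription factor *Mkx* fell from E18.5 to 2 wks and was about as low at 7 wks, while *Scx* showed no change that passed the test. *Mkx* measured 5.09, 4.43, 1.64 and 1.68 CPM in the 4 E18.5 libraries, 0.369, 0.639, 1.42 and 1.31 at 2 wks, and 1.67, 0.683, 0.475 and 0.445 at 7 wks. The lowest E18.5 library lay above all of 2 wks, but below 7 wks replicate 1. The fall to 2 wks was -1.78 (SE 0.53, edgeR adjusted p = 0.00961) and that from E18.5 to 7 wks was -1.99 (SE 0.54, edgeR adjusted p = 0.00475). Without 7 wks replicate 1 the second fall was -2.57, and with total-count scaling they were -2.73 and -3.24. Between 2 and 7 wks the difference was -0.21 with a 95% interval of -1.38 to 0.95.

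*Scx* was a low gene at all ages, with 62 to 507 counts per library. It measured 0.977, 2.94, 1.41 and 1.01 CPM at E18.5, 1.04, 1.12, 3.75 and 5.27 CPM at 2 wks, and 1.67, 1.41, 2.42 and 1.06 CPM at 7 wks. The ages overlapped fully, and the 2 highest values were those of 2 wks replicates 3 and 4. The difference from E18.5 to 2 wks was 0.82 with a 95% interval of -0.28 to 1.92 (SE 0.51, edgeR adjusted p = 0.173), and it turned to -0.17 with total-count scaling and to -0.54 with the trend over GC content removed. Without E18.5 replicate 2 it was 1.31 and passed the test, at an adjusted p of 0.0409 in a range of 0.0409 to 0.758 over the 21 alternatives. Between E18.5 and 7 wks it was 0.051, with a 95% interval of -1.06 to 1.16. With total-count scaling this last difference was -1.24 and passed the test, at an adjusted p of 0.0322 in a range of 0.0322 to 1. *Bop1*, which spans *Scx*, measured 5.14 to 14.4 CPM at E18.5, then 23.9 to 38.4 at 2 wks and finally 23.6 to 31.0 at 7 wks, above *Scx* in every library, and its part in the *Scx* counts was not tested.

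Tenomodulin RNA was abundant before birth and 5.16-fold lower at 2 wks. *Tnmd* measured 166, 107, 51.1 and 47.0 CPM at E18.5, 6.16, 7.41, 32.3 and 26.0 CPM at 2 wks, and 31.9, 6.74, 9.42 and 5.26 CPM at 7 wks. Every E18.5 library lay above every later library, and the later ages overlapped. The change was -2.37 to 2 wks (SE 0.67, edgeR adjusted p = 0.00644) and -2.80 from E18.5 to 7 wks (SE 0.68, edgeR adjusted p = 0.00207). The latter was -3.69 without 7 wks replicate 1, and total-count scaling gave -3.34 and -4.05. Between 2 and 7 wks it was -0.43, with a 95% interval of -1.80 to 0.94. At E18.5 the adipocyte list summed to 232 and 179 CPM in replicates 1 and 2 and to 1972 and 2700 CPM in replicates 3 and 4. The latter were the libraries with the least *Tnmd*, *Mkx*, *Thbs4*, *Comp* and *Tnc* of that age. *Scx* and *Cilp* had another order, with *Scx* lowest in replicate 1 (0.977 CPM) and *Cilp* highest in replicate 3 (26.5 CPM). The part of adipocytes in the values of the 7 genes was not tested.

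*Tnc*, which encodes an adhesion-modulating glycoprotein of developing and loaded tendon, had the largest fall of the list. It measured 212, 201, 96.9 and 163 CPM at E18.5, 11.98, 11.7, 40.3 and 42.4 CPM at 2 wks, and 38.8, 10.2, 11.2 and 6.004 CPM at 7 wks. E18.5 stood above the later ages with no overlap. *Tnc* was 6.33-fold lower at 2 wks (log2 -2.66, SE 0.58, edgeR adjusted p = 0.00119) and 10.2-fold lower at 7 wks than at E18.5 (log2 -3.35, SE 0.60, edgeR adjusted p = 0.000197). The size of the change from E18.5 to 7 wks depended on 7 wks replicate 1, without which it was -4.19, and with total-count scaling the values were -3.63 and -4.60. From 2 to 7 wks the difference was -0.69 (SE 0.55, edgeR adjusted p = 0.380). This interval rested on 7 wks replicate 1, without which it was -1.54 with an adjusted p of 0.0333, in a range of 0.0333 to 0.689 over the 21 alternatives.

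*Thbs4*, a thrombospondin of the myotendinous junction and tendon, had no change that passed the test and was widely spread at 2 wks. It measured 77.2, 119, 49.2 and 48.4 CPM at E18.5, 20.3, 21.7, 159 and 216 CPM at 2 wks, and 248, 122.7, 170 and 115 CPM at 7 wks. At 2 wks replicates 1 and 2 lay below and replicates 3 and 4 above all 4 libraries of E18.5, a 10.6-fold range within 1 age. The difference was 0.50 from E18.5 to 2 wks (95% interval -0.85 to 1.85), a sign that turned with total-count scaling (-0.50), with the GC trend removed (-0.14) and without 2 wks replicate 4 (-0.13). From 2 to 7 wks it was 0.65 (95% interval -0.70 to 2.00). From E18.5 to 7 wks it was 1.15 (SE 0.63, edgeR adjusted p = 0.117), with *Thbs4* at least 115 CPM in all 7 wks libraries and at most 119 in all E18.5 libraries, and -0.12 with total-count scaling. A fit of the 8 libraries of E18.5 and 7 wks alone gave 1.06 with an adjusted p of 0.0143, in a range of 0.0143 to 0.859 over the 21 alternatives.

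*Comp*, a relative of *Thbs4* found in both tendon and cartilage, varied most of the 7 genes within an age. It measured 0.797, 6.44, 0.332 and 0.344 CPM at E18.5, 2.00, 1.94, 13.5 and 11.4 CPM at 2 wks, and 13.8, 2.47, 4.00 and 1.35 CPM at 7 wks. E18.5 replicate 2 lay 19.4-fold above the lowest library of its age and within the range of both later ages, while the other 3 E18.5 libraries lay below every later one. With all libraries the difference from E18.5 was 1.87 at 2 wks (SE 1.005, edgeR adjusted p = 0.116) and 1.44 at 7 wks (SE 0.997, edgeR adjusted p = 0.207). Without E18.5 replicate 2 it was 3.89 at 2 wks (adjusted p = 0.00286, in a range of 0.000859 to 0.436 over the 21 alternatives) and 3.46 at 7 wks (adjusted p = 0.00469, in a range of 0.00469 to 0.860), and both passed the test. In that library the 10 cartilage markers summed to 166 CPM, against 19.0 to 49.98 CPM in the other E18.5 libraries. *Col2a1*, the main collagen of cartilage, was at 73.0 CPM there and at 2.78 to 7.38 CPM in the others. The epidermis list summed to 54.7 CPM in the same library, against 6.46 to 16.4 CPM in the others. The part of these tissues in the *Comp* value was not tested.

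*Cilp*, a matrix protein named for the middle layer of cartilage, was the only gene of the list called in both intervals. It measured 19.2, 23.2, 26.5 and 13.6 CPM at E18.5, 32.5, 33.6, 56.9 and 103 CPM at 2 wks, and 26.1, 22.1, 16.8 and 10.4 CPM at 7 wks. All 2 wks libraries lay above all libraries of the other ages, and E18.5 and 7 wks overlapped. *Cilp* rose by 1.46 to 2 wks (SE 0.37, edgeR adjusted p = 0.00341) and fell by 1.59 from 2 to 7 wks (SE 0.37, edgeR adjusted p = 0.00714), which left a difference of -0.13 between E18.5 and 7 wks (95% interval -0.91 to 0.65). The rise was 0.47 with total-count scaling and missed the test there, at an adjusted p of 0.225 in a range of 0.000613 to 0.225 over the 21 alternatives. The fall passed the test in all 21. The change to 2 wks minus the change from 2 to 7 wks was 3.04 (SE 0.61, edgeR adjusted p = 0.00208), a contrast that passed the test in all 20 of its alternatives and was 2.12 without 2 wks replicate 4 and 2.36 with total-count scaling.

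**Figure D1:**
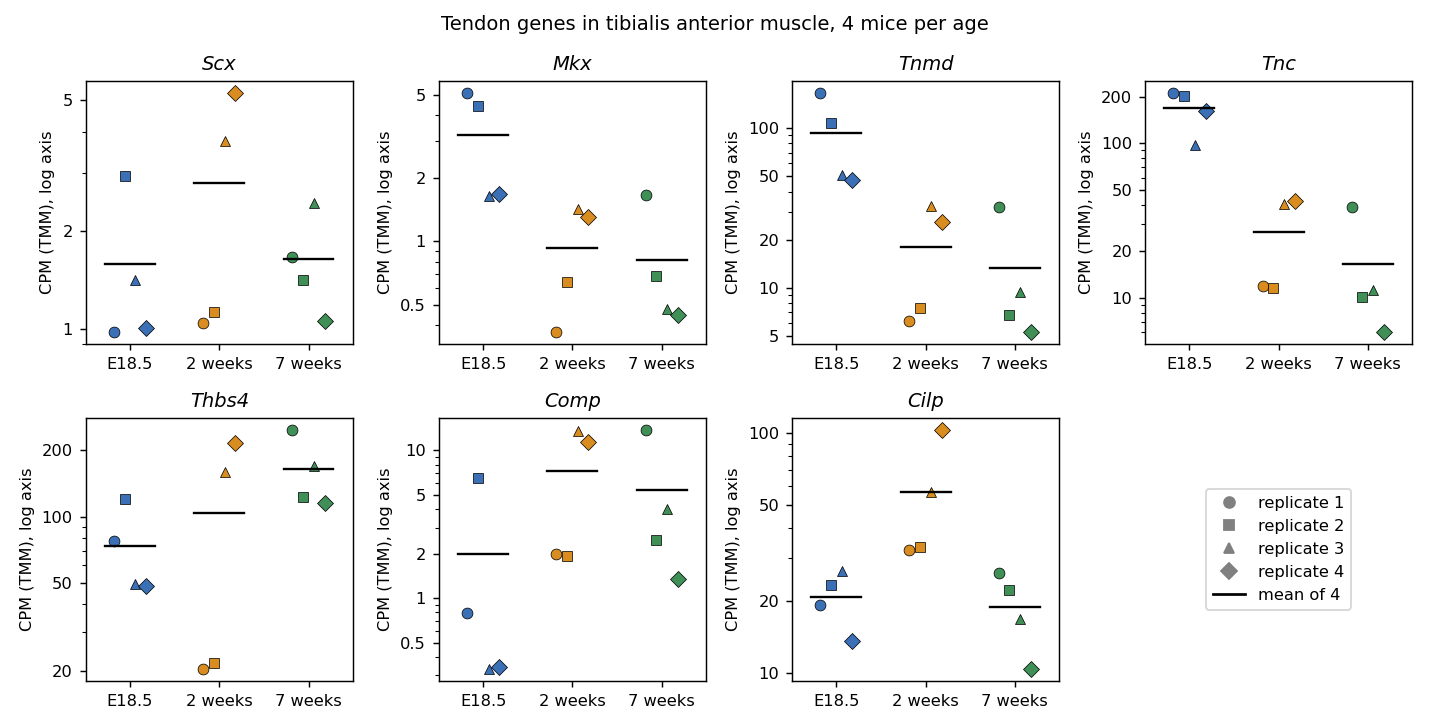
Level of each tendon gene in CPM after TMM (log axis) against age, with a point for each of the 4 libraries of an age, a shape for each replicate number and a line at the mean. *Tnmd* and *Tnc* at E18.5 lie above all later libraries, *Cilp* is highest at 2 wks, and *Thbs4* at 2 wks splits into values near 20.3 and 21.7 and values of 159 and 216.

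The first interval, E18.5 to 2 wks, brought falls of *Mkx*, *Tnmd* and *Tnc* and a rise of *Cilp*. Of the 7 genes, 4 passed the test, 1 upwards and 3 downwards, and in the same 4 the libraries of the ages did not overlap. Of all genes tested, 65.7% passed in this interval (31.5% upwards and 34.2% downwards) and 61.3% did not overlap, so 4 of 7 is close to the background. The median fold change was 0.50 over the 7 genes and -0.09 over all genes tested, but the sign over the 7 genes turned with total-count scaling (-0.50) and with the GC trend removed (-0.54). With total-count scaling 3 of the 7 were called and without E18.5 replicate 2 it was 6, with *Scx* and *Comp* added.

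From 2 to 7 wks *Cilp* fell and the other 6 genes had no change past the test. Of all genes tested, 27.5% were called in this interval, 13.5% upwards and 13.9% downwards, and 33.7% did not overlap. Of the 7 genes it was 1 on each count. The median was -0.43 over the 7 genes and -0.03 over all. Without 7 wks replicate 1 the count was 2, with *Tnc* added. These 2 intervals share the 2 wks libraries, and of the 7 genes only *Cilp* passed the test of their difference, which 38.4% of all genes passed.

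Across the whole period, from E18.5 to 7 wks, *Mkx*, *Tnmd* and *Tnc* were lower and no gene of the list was called higher. The 3 of 7 stand against 71.4% of all genes tested (34.3% higher and 37.1% lower), and the libraries of *Tnmd* and *Tnc* did not overlap, against 63.4% of all genes. The median was -0.13 over the 7 genes and -0.09 over all. With total-count scaling 5 of the 7 were called lower, *Scx* and *Cilp* being added.

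**Figure D2:**
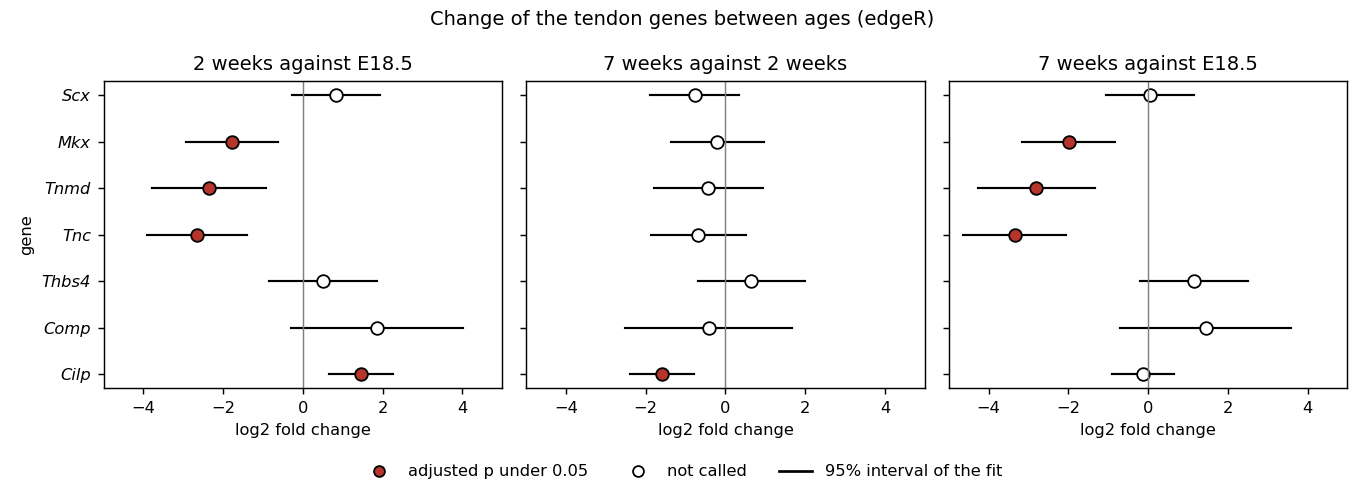
Log2 fold change of each tendon gene between pairs of ages from the edgeR fit, with bars for the 95% interval and filled points where the adjusted p was under 0.05. *Mkx*, *Tnmd* and *Tnc* lie left of 0 in both comparisons with E18.5, *Cilp* lies right of 0 in the first interval and left in the second, and the bars of *Scx*, *Thbs4* and *Comp* cross 0 in all 3 comparisons, the signs of *Scx* and *Thbs4* against E18.5 turning with total-count scaling.

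Levels of different genes are compared per kilobase of exon (CPM per kb). The length is that of all annotated exons of a gene merged, not of the transcript that is expressed. At E18.5 *Tnmd* was highest, at a mean of 63.3 CPM per kb (32.1 to 113 over the 4 libraries), followed by *Tnc* at 21.1 and *Thbs4* at 19.9, whose ranges overlapped each other, and the lowest *Tnmd* library lay just under the highest *Thbs4* library at 32.4. *Cilp* followed at 3.54 CPM per kb (2.33 to 4.55), apart from its neighbours on both sides, and *Comp* at 0.663, *Scx* at 0.582 and *Mkx* at 0.329 overlapped.

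At 7 wks *Thbs4* led at 44.4 CPM per kb (31.1 to 67.2), with no overlap with *Tnmd* in the next place at 9.11 (3.59 to 21.8). *Cilp* at 3.24, *Tnc* at 2.08 and *Comp* at 1.81 CPM per kb overlapped each other. *Scx* at 0.603 lay in turn above *Mkx* at 0.0836 with no overlap, as it did at 2 wks, where the means were 1.03 and 0.0957 CPM per kb. In the other places at 2 wks *Thbs4* at 28.2, *Tnmd* at 12.3 and *Cilp* at 9.70 CPM per kb overlapped, and *Tnc* at 3.34 overlapped *Comp* at 2.42.

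Within an age the 7 genes spread more than most genes. The SD of log2 CPM within ages was 1.66 for *Comp*, 1.15 for *Thbs4*, 1.09 for *Tnmd*, 0.94 for *Tnc*, 0.88 for *Mkx*, 0.85 for *Scx* and 0.61 for *Cilp*. Its median over 11888 genes whose log2 CPM averaged 1 or more was 0.28, and the 7 values lay between the 94.7th and the 99.9th percentile of that distribution. *Scx* and *Mkx* themselves average under that limit.

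The same libraries were often high or low across the 7 genes. E18.5 replicate 2 was above the mean log2 level of its age for 7 of 7 genes. At 2 wks replicates 3 and 4 were above it for 7 of 7 and replicates 1 and 2 for 0 of 7. At 7 wks replicate 1 was above it for 7 of 7 and the highest library for 6, while replicate 4 was the lowest for 7 of 7. The genes of 1 library share its tissue piece and its scaling, so these counts describe libraries.

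Other cell type lists were set beside this order. At 2 wks the cartilage list summed to 19.2, 23.7, 56.3 and 40.1 CPM in replicates 1 to 4, highest in the replicates where the tendon genes were highest, and 2 of its 10 genes were at 0 in all libraries of that age. Most of that sum was *Col11a2*, at a mean of 26.4 CPM against 34.8 CPM for the whole list. *Col2a1* was at 1.43, 2.42, 6.81 and 6.04 CPM in the same libraries. *Col9a2* went the other way, with its highest value in replicate 1 (1.21 CPM) and its lowest in replicate 3 (0.561 CPM). The muscle fibre list was higher in replicates 3 and 4 as well, at 111047, 111394, 127535 and 134703 CPM in replicates 1 to 4. The Schwann cell list summed to 492 CPM in replicate 1 and to 95.7 to 175 CPM in the others. The fibroblast list gave another order, 974, 933, 920 and 711 CPM, and was lowest in replicate 4. At 7 wks it was highest in replicate 1, at 566 CPM, and lowest in replicate 4, at 320 CPM, as the tendon genes were, while the cartilage list stayed between 9.04 and 14.8 CPM. The part of cartilage, nerve, connective tissue or muscle fibres in the tendon values was not tested.

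**Figure D3:**
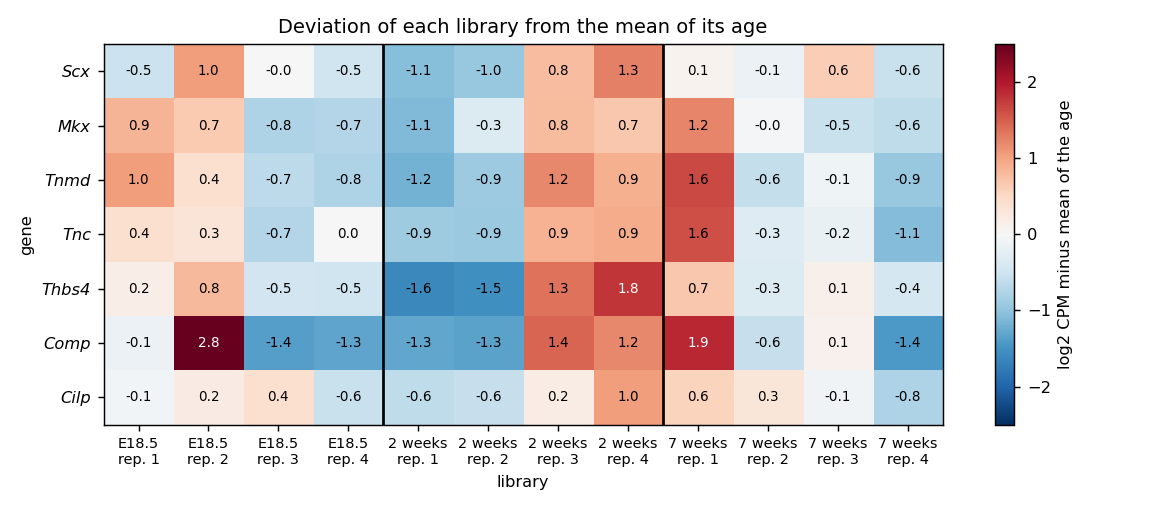
Difference of log2 CPM from the mean of its age for each tendon gene (vertical) in each library (horizontal), on a colour scale from blue (below) to red (above). The columns of 2 wks replicates 1 and 2 are blue and those of replicates 3 and 4 red for 7 of 7 genes, and the column of 7 wks replicate 4 is blue throughout.

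**Figure D4:**
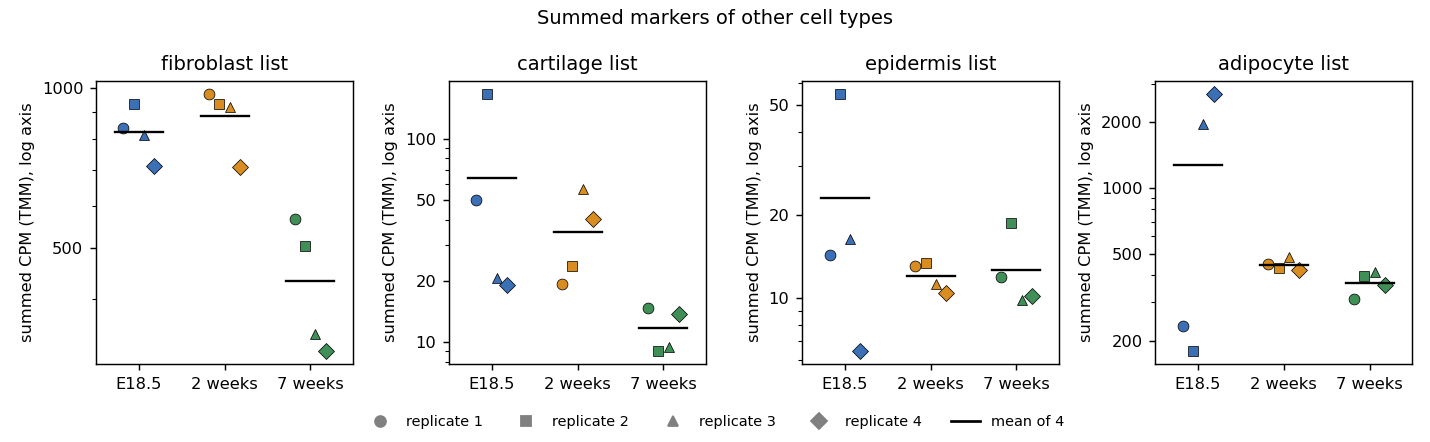
Summed level of 4 marker lists in CPM after TMM (log axis) against age, with a point for each library and a line at the mean. E18.5 replicate 2 is highest in the cartilage (166 CPM) and epidermis (54.7 CPM) lists, and the highest E18.5 library in the fibroblast list. E18.5 replicates 3 and 4 are highest in the adipocyte list, and the fibroblast list is lowest at 7 wks.

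Ratios of the counts of 2 genes within a library do not depend on the scaling between libraries. They are not corrected for gene length, so their sign does not tell which gene was higher per kb. The ratio of *Tnmd* to *Tnc* overlapped between all ages. The log2 ratio of *Tnmd* to *Tnc* was -0.35, -0.91, -0.92 and -1.79 at E18.5, -0.96, -0.66, -0.32 and -0.71 at 2 wks, and -0.28, -0.60, -0.25 and -0.19 at 7 wks. *Tnc* had more counts than *Tnmd* in all 12 libraries.

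*Thbs4* gained on *Tnc* at each age. The log2 ratio of *Thbs4* to *Tnc* was -1.46, -0.75, -0.98 and -1.75 at E18.5, 0.76, 0.89, 1.98 and 2.35 at 2 wks, and 2.67, 3.59, 3.92 and 4.26 at 7 wks. The 3 ages did not overlap, which held for no other of the 21 pairs among the 7 genes. The share of all gene pairs whose 3 ages do not overlap was not computed, so whether 1 of 21 is unusual cannot be told. The mean moved from -1.23 ± 0.45 to 1.496 ± 0.79 and 3.61 ± 0.68 (SD, n = 4). Leaving out any library left the means at -1.39 to -1.06, 1.21 to 1.74 and 3.39 to 3.92.

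The 2 transcription factors also changed in relation to each other. The log2 ratio of *Scx* to *Mkx* was below 0 in all 4 E18.5 libraries (-2.38, -0.59, -0.22 and -0.74), above 0 in all 4 at 2 wks (1.49, 0.81, 1.40 and 2.01), and 0, 1.05, 2.35 and 1.25 at 7 wks. Per kb the mean of *Scx* was above that of *Mkx* at E18.5 as well (0.582 against 0.329), with overlapping libraries. That order rests on the merged exon lengths, 2719 bp for *Scx* and 9771 bp for *Mkx*. The log2 ratio of *Tnmd* to *Comp* was 7.70, 4.05, 7.27 and 7.09 at E18.5, replicate 2 being the low value. It lay between 1.19 and 1.96 in all 8 later libraries. Of the 21 pairs among the 7 genes, 14 did not overlap between E18.5 and 2 wks, 4 between 2 and 7 wks and 14 between E18.5 and 7 wks. The background over 106310071 pairs of the 14582 genes with at least 10 counts in every library was 62.0%, 37.0% and 64.0%, so the first and last counts are close to those of any pair of genes and the second is lower.

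**Figure D5:**
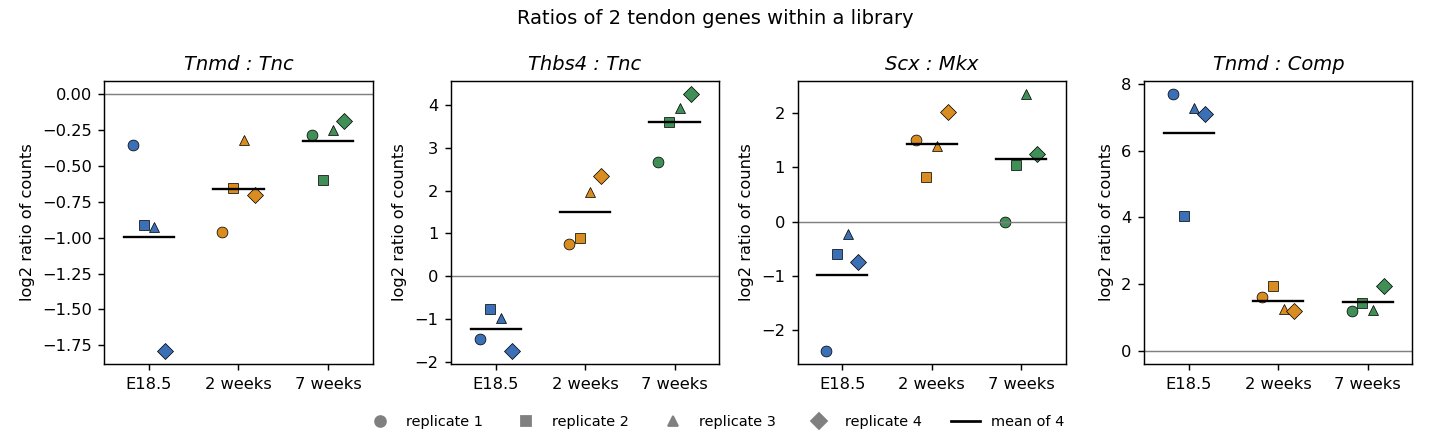
Log2 ratio of the counts of 2 tendon genes within a library against age, with a point for each library and a line at the mean of 4. *Thbs4* to *Tnc* steps up at each age with no overlap (means -1.23, 1.496 and 3.61), *Tnmd* to *Tnc* overlaps across ages, and *Tnmd* to *Comp* falls from 6.53 to 1.501 on average with E18.5 replicate 2 at 4.05.

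Likeness of profile was measured as the root-mean-square difference of gene-centred log2 CPM over the 12 libraries. Among the 7 genes the closest pairs were *Tnmd* and *Tnc* at 0.43 and *Tnmd* and *Mkx* at 0.55, followed by *Scx* and *Cilp* at 0.64, and the farthest were *Comp* and *Tnc* at 2.75. Among 11396 other protein-coding genes, *Kera*, which encodes the small leucine-rich proteoglycan keratocan, was the nearest to both *Tnmd* (0.39) and *Mkx* (0.36). *Kera* measured 58.4 ± 45.5 CPM at E18.5, then 11.6 ± 7.21 CPM at 2 wks and 12.4 ± 10.8 CPM at 7 wks (SD, n = 4).

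The next nearest to *Tnmd* was the fibrillar collagen gene *Col11a1* (0.52), and to *Mkx* the mitotic kinesin gene *Kif18a* (0.44). *Tnc* was nearest to *Ccn4*, a matricellular gene (0.45), and to *Sqle*, a gene of cholesterol synthesis (0.48). *Comp* was nearest to *Angptl7* (0.75) and to *Cilp2*, the paralog of *Cilp* (0.78). *Cilp* itself was nearest to *Dok1*, an adaptor of tyrosine kinases (0.48), and to the hyaluronan receptor gene *Layn* (0.51), *Scx* to *Sergef* (0.49) and *Myo7a* (0.51), and *Thbs4* to *Kif26b* (0.60) and *Ccdc136* (0.64).

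Paralogs of the list were set beside it. *Thbs1*, *Thbs2* and *Thbs3*, which like *Thbs4* encode thrombospondins, all fell from E18.5 to 2 wks, by 1.84, 3.10 and 1.40 on the log2 scale (edgeR adjusted p = 0.000843, 1.2e-05 and 0.00472), with log2 changes of -2.82, -3.97 and -2.90 from E18.5 to 7 wks. *Cilp2* was 9.52-fold higher at 2 wks than at E18.5 (log2 3.25, SE 0.68, edgeR adjusted p = 0.000876) and had no change past the test from there to 7 wks (-0.66, SE 0.63). Its rise was 1.53 and missed the test with the GC trend removed, and its difference from *Cilp* was not tested. *Tnn*, a relative of *Tnc*, had 130 to 1476 counts per library at E18.5, then 5 to 52 at 2 wks and finally 0 to 4 at 7 wks. *Cnmd*, the cartilage relative of *Tnmd*, had 28 to 782 counts at E18.5, with the highest in replicate 2, 2 to 8 at 2 wks and 0 to 6 at 7 wks.

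With their receptors, these relatives form a list of 14 genes of which 13 were tested (*Tnr* was not). From E18.5 to 2 wks 2 rose and 7 fell, from 2 to 7 wks 0 rose and 3 fell, and over the whole period 2 rose and 7 fell, with medians of -0.64, -0.85 and -1.82. The 9, 3 and 9 of 13 called stand against 65.7%, 27.5% and 71.4% of all genes, shares to which they are close. With total-count scaling 1 rose and 10 fell, 0 rose and 9 fell, and 0 rose and 11 fell. The integrin gene *Itga9*, whose product binds tenascin, fell by 1.18 from 2 to 7 wks (SE 0.21, edgeR adjusted p = 0.00135). *Sdc4*, a syndecan, rose by 0.43 to 2 wks (SE 0.15, edgeR adjusted p = 0.0211) but was lower with total-count scaling (-0.48). The thrombospondin receptor gene *Cd36* was higher by 0.82 at 7 wks than at E18.5 (SE 0.34, edgeR adjusted p = 0.0460), a sign that turned with total-count scaling (-0.46).

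Collagens and proteoglycans of tendon that were called were lower, with 1 exception. Of 15 tendon matrix genes, 0 rose and 9 fell to 2 wks, 0 rose and 8 fell from 2 to 7 wks, and 1 rose and 13 fell over the whole period, with medians of -0.83, -1.12 and -2.24 against -0.09, -0.03 and -0.09 over all genes. Of all genes, 34.2%, 13.9% and 37.1% fell and 65.7%, 27.5% and 71.4% were called either way, so that the 9 of 15 called to 2 wks are near the overall share. With total-count scaling 12, 9 and 13 fell and 0 rose. *Col12a1*, a collagen of fibril surfaces, measured 322 ± 110 CPM at E18.5, then 17.5 ± 8.82 CPM at 2 wks and 9.45 ± 9.82 CPM at 7 wks (SD, n = 4), a change of -4.20 to 2 wks (SE 0.61, edgeR adjusted p = 4.8e-05). The cross-linking enzyme gene *Lox* fell by 2.80 to 2 wks. *Col1a1*, the main fibril collagen, and *Col14a1* fell by 2.20 and 1.87 from 2 to 7 wks. The gene called higher was *Prg4*, which encodes the lubricant lubricin (2.12, SE 0.83, edgeR adjusted p = 0.0337), a difference that was 0.87 and missed the test with total-count scaling. Many of these genes are made by muscle fibroblasts as well, and the fibroblast list summed to 712 to 935 CPM at E18.5, 711 to 974 at 2 wks and finally 320 to 566 at 7 wks. This sum hides opposite changes, since of the 8 genes in it 3 rose and 3 fell to 2 wks. Among them the log2 change was 1.37 for *Col15a1* and -2.00 for *Pdgfra*. The part of fibroblasts in the falls of the matrix genes was not tested.

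Regulators upstream of tendon genes held both rises and falls. Of the 14 tested of 15 (*Gdf7* was not), 2 rose and 7 fell to 2 wks, 3 rose and 4 fell from 2 to 7 wks, and 3 rose and 7 fell over the whole period. The 9 and 10 of 14 called against E18.5 are near the 65.7% and 71.4% of all genes, and the 7 of 14 from 2 to 7 wks stand against 27.5%. With total-count scaling 2 rose and 11 fell, 2 rose and 6 fell, and 1 rose and 12 fell. *Smad3*, a mediator of TGF-beta signals, rose by 1.96 to 2 wks and by 0.96 from 2 to 7 wks (SE 0.15 each, edgeR adjusted p = 2.8e-07 and 0.000545), from 38.2 ± 4.37 to 149 ± 20.3 and 291 ± 33.8 CPM (SD, n = 4). *Smad2*, the related mediator, fell by 1.47 to 2 wks, and the shared partner *Smad4* rose by 0.71 from 2 to 7 wks. The ligand gene *Tgfb1* rose by 1.82 to 2 wks and fell by 1.41 from 2 to 7 wks. The receptor genes *Tgfbr3* and *Tgfbr2* were lower at 7 wks than at E18.5 (log2 -1.54 and -1.45). *Gdf6* fell by 1.47 to 2 wks, *Egr2* fell by 1.04 from 2 to 7 wks, and *Gdf5* was higher by 1.08 at 7 wks than at E18.5, where total-count scaling gave -0.21.

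Genes of the myotendinous junction were also mixed. Their list holds matrix genes and adhesion genes that are not limited to the junction. Of 14, 5 rose and 6 fell to 2 wks, 1 rose and 4 fell from 2 to 7 wks, and 5 rose and 6 fell over the whole period. The 11, 5 and 11 of 14 called stand against 65.7%, 27.5% and 71.4% of all genes. With total-count scaling none of the rises from E18.5 passed the test, and 8 genes fell to 2 wks and 9 over the whole period. With the GC trend removed 0 rose and 7 fell to 2 wks, and 2 rose and 7 fell over the whole period. The laminin receptor gene *Itga7* rose by 1.33 to 2 wks (SE 0.22, edgeR adjusted p = 0.000149; 0.38 with total-count scaling, which missed the test), and its partner *Itgb1* fell by 0.65 (SE 0.21, edgeR adjusted p = 0.0134). The talin genes *Tln1* and *Tln2*, which link integrins to actin, were higher at 7 wks than at E18.5 by 1.15 and 1.18, with total-count values of -0.13 and -0.095. The intermediate filament gene *Nes* fell by 0.90 in each interval. *Fermt2* rose by 0.80 and *Parva* fell by 0.82 from 2 to 7 wks. *Col22a1*, a collagen found at the junction, was higher by 0.69 at 2 wks (SE 0.29, edgeR adjusted p = 0.0480) and by 1.05 at 7 wks (SE 0.29, edgeR adjusted p = 0.00482) than at E18.5, signs that turned with total-count scaling (-0.27 and -0.22).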

How the data were processed

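RNA of TA muscle pieces from 12 mice was prepared by the authors with a stranded polyA kit and sequenced as paired reads. Reads were trimmed with cutadapt 1.10 and mapped with STAR 2.5.3a, and the submitters' processing notes also name HTSeq 0.6.1p1 and bcl2fastq 2.17.1.14. The authors deposited raw counts of reads for each Ensembl gene. The notes give mm10 as the genome build and the paper's methods give GRCm39. The table holds no coordinates, so positions are those of RefSeq on GRCm38.p6. The strand setting of the counting is not given in the sources used here. The number of per-sample columns left unused was 0.

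Identifiers were matched to symbols, exon lengths and GC content through GENCODE vM39 (51477 of 55450 genes). The filter filterByExpr removed 36174 genes. After TMM normalization all 12 libraries entered a single edgeR 4.0.16 quasi-likelihood fit (R 4.3.3, limma 3.58.1) with age as its only term. P-values were Benjamini-Hochberg adjusted over all genes tested, with a threshold of 0.05. Nearest genes used log2 CPM with a prior count of 2 and genes with a mean of at least 1. The 7 genes and all lists were chosen with earlier results of these data known. Named were the 7 genes, the 2 nearest genes of each, paralogs, and up to 2 genes with the largest rise and 2 with the largest fall per related list and comparison. Also named were *Col2a1*, *Col11a2* and *Col9a2* of the cartilage markers and *Col22a1*, chosen after their values were seen. The lists held 15 tendon regulators, 15 matrix genes, 14 junction genes, 14 paralogs and receptors, and markers of fibroblasts (8), cartilage (10), bone (6), epidermis (6), adipocytes (6), Schwann cells (6), muscle fibres (6) and sex-linked genes (5).

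Alternatives were total-count scaling, RLE size factors, no filter, DESeq2 1.42.0, a minimum of 10 counts in all libraries, a replicate block, removal of the trend over GC content (known for 98.7% of tested genes), the 8 libraries of the ages compared and each library left out. Leaving out E18.5 replicate 2 and 7 wks replicate 1 together, and the ratios with each library left out, were added after seeing the data. On simulated counts for 2 wks against E18.5 over 18877 genes, at a dispersion of 0.08, 40 of 100 genes changed 2-fold and 95 of 100 changed 4-fold were recovered, with 9 false calls. The simulation used the same dispersion for every gene and changed far fewer genes than were called in the data. The 7 genes spread more than most genes within an age, so these shares cannot be carried over to them. None of the 18 pairs of replicates were copies of each other, since chi-square values over degrees of freedom were 34.7 to 619. The labels name 4 samples per age, and the paper describes them as mice.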

Additional observations from a re-analysis of the deposited data

Results flagged for a closer look

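Dixon's test was run on 42 sets of 4 libraries, 21 formed by the 7 tendon genes and 3 ages and 21 by marker lists. It was run on CPM and not on log2 CPM, the scale used for the spread within ages. The test assumes normally distributed values, and whether the flags remain on the log2 scale was not tested. In 3 of the 42 the highest library lay far from the others, where chance at 1 in 20 gives about 2.1, and all 3 were of tendon genes. *Comp* at E18.5 was at 6.44 CPM in replicate 2, against at most 0.797 in the others, and this library also had the most cartilage and epidermis marker RNA. It had the most muscle fibre, fibroblast, bone and Schwann cell marker RNA of its age as well. *Tnmd* at 7 wks was at 31.9 CPM and *Tnc* at 38.8 CPM in replicate 1, against at most 9.42 and 11.2 in the others. Both values come from the same library, which was the highest of its age for 6 of the 7 genes.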

How the results depend on the processing

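The falls of *Tnmd*, *Mkx* and *Tnc* from E18.5 to 2 wks and to 7 wks, and the fall of *Cilp* from 2 to 7 wks, kept their direction and passed the test under all 21 alternatives each. The count of tendon genes called lay between 4 and 6 of 7 with each library left out (E18.5 to 2 wks), 1 and 2 (2 to 7 wks, 2 without 7 wks replicate 1), 3 and 4 (E18.5 to 7 wks) and 1 and 2 (difference of the intervals, 2 without E18.5 replicate 2). Total-count scaling gave 5 for E18.5 to 7 wks and 2 for the difference of the intervals. Leaving out E18.5 replicate 2 and 7 wks replicate 1 together gave 2 for 2 to 7 wks and 2 for the difference. Over all genes, 5296 were called from 2 to 7 wks and 3472 without 2 wks replicate 1. The replicate block left the counts at 4, 1, 3 and 1. Libraries with the same replicate number correlated at -0.283 to 0.514, above 0.1 in 5 of 12 pairs. The numbers were not treated as a pairing in the main fit, and these correlations cannot show that there is none. Signs turned for differences that had not passed the test. With total-count scaling these were *Scx* (-0.17) and *Thbs4* (-0.50) from E18.5 to 2 wks and *Scx* (-1.24) and *Thbs4* (-0.12) from E18.5 to 7 wks. With the GC trend removed they were *Scx* (-0.54), *Thbs4* (-0.14), *Comp* from 2 to 7 wks (0.18), *Scx* from E18.5 to 7 wks (-0.81) and *Scx* in the difference (-0.27). *Scx* from E18.5 to 7 wks also gave -0.0061 with DESeq2, -0.010 without a filter, -0.11 with at least 10 counts in every library and -0.041 in the 8 libraries. With each library left out the ranges were -0.13 to 0.87 for *Thbs4* from E18.5 to 2 wks, -1.33 to 0.013 for *Tnmd*, -0.81 to 0.062 for *Mkx* and -1.47 to 0.072 for *Comp* from 2 to 7 wks, -0.19 to 0.54 for *Scx* and -0.32 to 0.081 for *Cilp* from E18.5 to 7 wks, and -1.42 to 0.56 for *Thbs4* in the difference, which was 0.46 without both libraries. The cause was not tested. With 4 mice an age and the wide spread of these genes, 2-fold changes of *Thbs4*, *Scx* and *Comp* lie inside their intervals, and *Mkx*, at 22 to 104 counts after birth, is the least precisely counted.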

Other observations

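The bone list summed to 16.2 to 40.3 CPM at E18.5, then 35.9 to 45.5 at 2 wks and finally 39.3 to 47.5 at 7 wks. After birth most of that sum was *Alpl*, a phosphatase gene not limited to bone, at 30.6 ± 7.64 CPM and then 39.5 ± 2.94 CPM (SD, n = 4), while *Bglap*, the osteocalcin gene, lay between 0.201 and 16.3 CPM at 2 wks. Of its 6 genes, 2 rose and 2 fell to 2 wks. *Fmod*, which encodes the tendon proteoglycan fibromodulin, had no change past the test (0.46, SE 0.64, to 2 wks and -0.050, SE 0.64, from 2 to 7 wks), with edgeR adjusted p-values of 0.541 and 0.964, and was looked up after its values were seen.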
